A study of Mus musculus with 70 samples.

Results

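The cytosolic ribosomal protein genes were read in regulatory T cells (Tregs) sorted from 6 tissues of the mouse. Members were the protein-coding genes with a symbol of Rpl or Rps and a digit, together with Rplp0, Rplp1, Rplp2 and Rpsa. Of 102 matching symbols, 10 Rps6k kinase genes and 6 symbols ending in -ps were left out, and 86 of the 21865 protein-coding genes in the table remained. They comprised 34 Rps and 52 Rpl symbols. The symbols also brought in Rps19bp1, a nucleolar protein that binds Rps19, and Rpl7l1, a relative of Rpl7 that belongs to the ribosome assembly machinery.

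Each cytosolic ribosome joins a small subunit, which reads the mRNA, to a large subunit, which forms the peptide bond. Their proteins are made in near equal numbers, and in many cell types the mRNAs are among the most abundant. Most of these mRNAs start with a C followed by a run of pyrimidines, the 5′ terminal oligopyrimidine (TOP) tract through which mTORC1 and Larp1 control their translation. Retrotransposition has left many processed pseudogenes of these mRNAs in mammalian genomes, and a short read from a parent gene can match such copies exactly.

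Libraries came from 5 male mice of the Foxp3YFP-cre strain, aged 16.6, 17.1, 17.4, 18.1 and 18.6 weeks (mouse 1 to mouse 5). All mice carry the Foxp3 allele that drives YFP and Cre in Foxp3-expressing cells, and the labels name no treatment. ST2+ CD44hi and ST2- CD44hi Tregs were sorted from blood, spleen, lungs, visceral adipose tissue (VAT), colon and skin, and ST2- CD44lo CD62L+ Tregs from spleen and lungs, which gave 14 groups. ST2 is the IL-33 receptor, CD44 marks effector Tregs and CD62L the central ones. Most libraries came from 220 sorted cells, with 55 to 220 in blood ST2+, 166 to 220 in blood ST2- and 93 to 220 in VAT ST2- Tregs. Before the sort, CD4 T cells were enriched with magnetic beads from spleen and lungs alone. Lungs, VAT, colon and skin were digested with collagenase, for the longest time in skin, while the study's methods name no digestion of blood or spleen. Neither step can be told apart from the tissue.

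Of 70 libraries, 67 held more than 1000000 counts and were used (1304560 to 2759926 counts, median 2039002). The 3 others were a blood ST2+ library and 2 colon ST2+ libraries, which left 4 and 3 libraries in those groups and 5 in each other group. Il1rl1, which encodes ST2, was at 228.5 to 1671 CPM (counts scaled to a common library total) in the libraries of ST2+ Tregs and at 0 to 205.5 CPM in ST2- libraries. Foxp3, the defining Treg factor, ranged from 109 to 428 CPM. Markers of other cell types were highest in colon ST2+ Tregs for 5 myeloid genes (summed level 726.4 to 896.5 CPM) and in skin for 3 keratinocyte genes (14.9 to 1094 CPM). Summed levels of 3 gut epithelium genes reached 761.7 CPM in colon ST2+ and 570.7 in colon ST2- libraries, and 3 fibroblast genes reached 747.2 and 472.7 CPM there and 596.5 CPM in skin ST2- libraries. The 2 lung epithelium genes were at 27.3 to 160.7 CPM in every lung library and at most 2.18 CPM elsewhere. The 4 hemoglobin genes reached 465.8 CPM in a library of blood ST2- Tregs, and 4 B cell genes 388.1 CPM in a colon ST2+ library. The part of these cells in the values below was not tested.

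How much of each ribosomal protein mRNA is shared with other genes was read from the annotation. Every 57-base window of each member's coding sequence, the length of a read after trimming, was looked up in 141767 annotated transcripts of GRCm38 (GENCODE M21). A window was called the gene's own when it occurred in no other annotated gene. The median member had 11.4% own windows. No own window at all was found in 30 members, 57 had under 20%, and 17 had at least 50%. Rps19bp1, Rpl3l and Rpl39l were among the fully own members, and 82 members matched another gene, among them 949 pseudogenes. Windows from both ends of that range are shown, since a read from a shared window cannot be assigned to its gene by sequence alone.
Rps3, chr7:99482644-99482700, minus strand, exon 2, in 0 other genes: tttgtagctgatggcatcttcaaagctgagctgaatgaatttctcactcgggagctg
Rps27, chr3:90213222-90213278, minus strand, exon 2, in 4 other genes: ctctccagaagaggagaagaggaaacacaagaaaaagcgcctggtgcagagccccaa
Rpl10a, chr17:28330554-28330610, plus strand, exon 5, in 3 pseudogenes: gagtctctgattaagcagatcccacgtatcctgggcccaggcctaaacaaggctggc
Rps6, chr4:86854767-86854823, minus strand, exon 5, in 9 pseudogenes: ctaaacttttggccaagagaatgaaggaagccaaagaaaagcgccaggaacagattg

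Levels in the table were lower for members with fewer own windows. Per kb of transcript, and averaged over the 14 groups, the 30 members with no own window had a median level of 21.9 CPM per kb, the 27 with some but under 20% one of 45.2, the 12 between 20% and 50% one of 99.0, and the 17 above 50% one of 234. Across the 86 genes, which are not independent replicates, Spearman's rho between own windows and level per kb was 0.60, and 0.78 without the paralogs Rpl10l, Rpl3l, Rpl39l and Rps27rt. The 17 mostly own members held 50.7% of all counts of the list and the 30 without an own window 9.77%. The order of levels among members was for this reason not read as an order of expression. With windows of 35 bases, the length after heavier trimming, the median fell to 4.34% own and 10 members kept at least 50%.

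**Figure D1:**
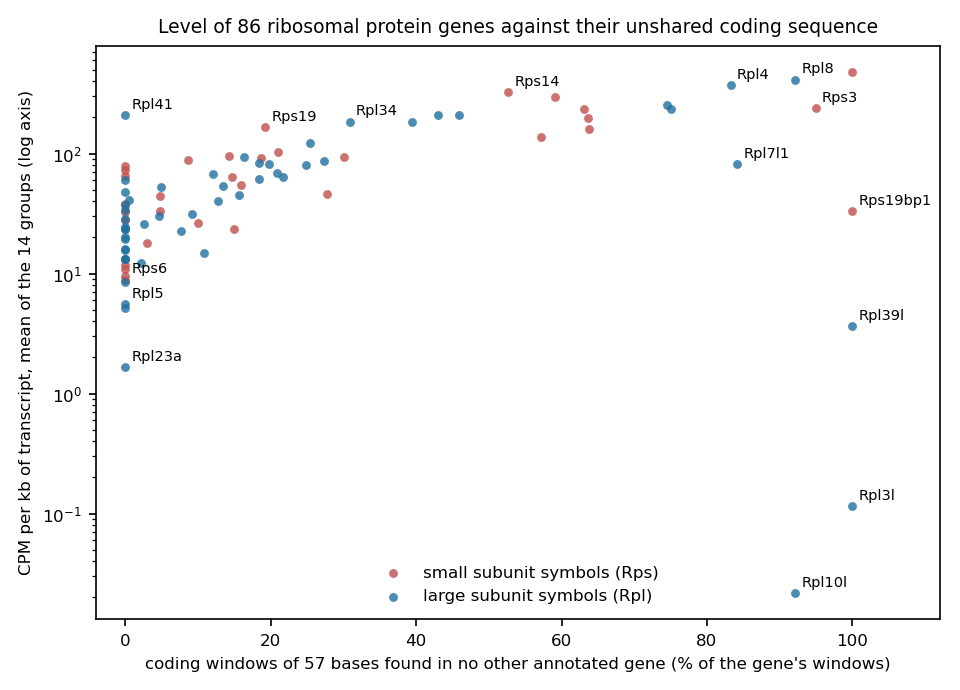
Level of each of the 86 members (CPM per kb of transcript, mean of the 14 groups, log axis) against the percent of its 57-base coding windows that occur in no other annotated gene. Outside the paralogs Rpl39l, Rpl3l and Rpl10l, which lie at the lower right, the lowest level is 1.66 CPM per kb (Rpl23a, no own window), and members with mostly own windows such as Rpl8 (414) and Rpl4 (370) lie at the top.

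High levels were found for Rpl8, a large subunit protein (chr15:76904078-76906314, plus strand), at 414 CPM per kb, and for Rpl4 (370), Rps14 (326) and Rps9 (297), all with at least 52.6% own windows. Rpl41, which encodes a very short basic peptide at the interface of the subunits, had no own window and 208 CPM per kb. Its coding sequence is 75 of 437 transcript bases and gave 19 windows. The rest of its transcript was not searched, although reads from it enter the level. The lowest levels among members that every ribosome carries belonged to Rpl23a at 1.66 CPM per kb (26 matching pseudogenes), Rpl24 at 5.20 (6 pseudogenes) and Rpl5 at 5.57 (11 pseudogenes). Rps6, the small subunit protein phosphorylated by S6 kinases, stood at 8.89 CPM per kb with 14 matching pseudogenes, and Rpl11, which joins Rpl5 and the 5S rRNA, at 13.3. This order depends on the transcript length used. Per kb of coding sequence Rps6, at 10.5 CPM, lay below Rpl5, at 12.8.

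Few counts were listed for the 880 matching pseudogenes found in the table. Their summed counts were 0.0247% to 0.0641% of a library, which equals 4.79% to 7.63% of the members' own counts. Of the ribosomal proteins whose symbols fall outside the rule, Fau lay at 4.75 to 8.50 CPM over the groups and Rack1, a scaffold on the small subunit, at 421.8 to 548.9.

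Counts per base of transcript, which bear on saturation, were read next. Rpl8 averaged 0.814 counts per base and reached 1.21 in its highest library, and Rpl4 averaged 0.727 and reached 0.990. Among protein-coding genes of at least 200 bases, the highest value in any library was 1.70, for B2m, the light chain of MHC class I, which averaged 1.51. In their highest libraries mt-Cytb, a mitochondrial gene, reached 1.531 counts per base, Tnfrsf4 1.525 and Ifi27l2a 1.516. The deposited table does not say how reads with the same start were handled. Saturation of the highest levels was not tested, nor was its part in the fold changes of members such as Rpl8 and Rpl4.

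Paralogs with restricted expression were near 0. Rpl10l, a testis paralog of Rpl10 with 92.2% own windows, had 3 counts in all 67 libraries, which is the floor used here (0.0224 CPM over the set). Rpl3l, a muscle paralog of Rpl3, had 23 counts in 8 libraries. Rpl39l, a testis paralog of Rpl39, had 257 counts in 34 libraries, with 34.0 CPM in the VAT ST2+ library of mouse 5 and at most 8.14 CPM in every other library. By contrast Rpl22l1, a paralog of the T cell development factor Rpl22, and Rps27l, a p53-responsive paralog of Rps27, had counts in all 67 libraries and mean levels of 82.9 and 138 CPM per kb. Rpl22 itself stood at 234 CPM per kb with 75% own windows. Rps27rt, a copy of Rps27 with no own window, had 10.8 CPM per kb.

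The 86 members together took 0.459% to 0.873% of protein-coding counts, with a median of 0.560%. Spleen ST2+ and ST2- CD44hi Tregs had shares of 0.539% ± 0.051 and 0.540% ± 0.025 (SD, n = 5 each). Skin was at 0.535% ± 0.053 and 0.552% ± 0.043, and colon at 0.561% ± 0.028 (n = 3) and 0.554% ± 0.023 (n = 5). CD44hi Tregs of these tissues therefore differed by less than their spread. Higher means were found in blood ST2- CD44hi Tregs (0.663% ± 0.110) and in the CD44lo CD62L+ Tregs of spleen (0.605% ± 0.044) and lungs (0.680% ± 0.113).

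Single libraries weighed on the 2 highest means. Mouse 4 of the lung CD44lo CD62L+ group had 0.873%, and the other 4 libraries of that group lay between 0.5805% and 0.662%. In that library 66 of the 84 tested members were at their highest of the group. Mouse 2 of the blood ST2- group had 0.840%, against 0.555% to 0.672% in the other 4, and 56 members at their highest. Across groups mouse 4 had the highest share in 7 of 14 and mouse 3 lay above the group mean in 1 of 14. Among the used libraries, the one of fewest counts had the highest share in every group except the ST2- CD44hi Tregs of spleen, lungs and colon. Its total was 1829206 in the lung CD44lo CD62L+ group and 1545636 in the blood ST2- group. The part of library total in the shares was not tested. The mitochondrial genes, the other abundant class, took 0.254% to 0.509% of counts, with their highest share in the same blood ST2- library of mouse 2.

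**Figure D2:**
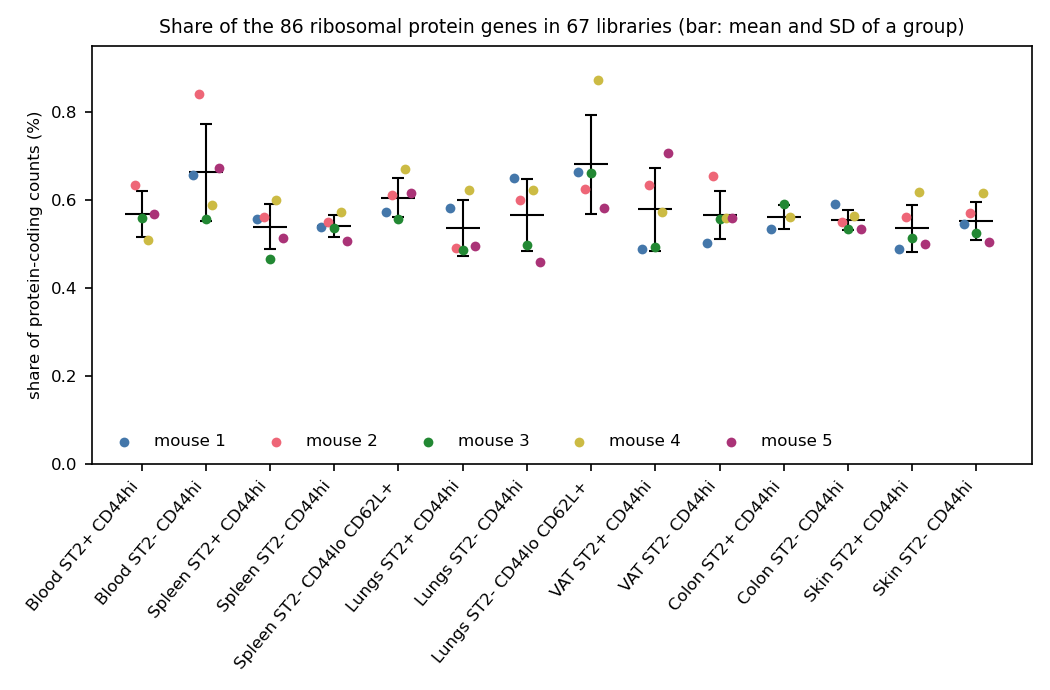
Summed counts of the 86 members as a percent of protein-coding counts in each of 67 libraries (points, coloured by mouse), with the mean and SD of each of the 14 groups. All other libraries lie between 0.459% and 0.707%, and the lung CD44lo CD62L+ library of mouse 4 (0.873%) and the blood ST2- library of mouse 2 (0.840%) stand above.

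Differences per gene were tested with edgeR's quasi-likelihood method on 13173 genes, with trimmed mean (TMM) scaling, and a gene was called at an adjusted p of at most 0.05 (Benjamini-Hochberg over all tested genes). Of the members 84 passed the filter on low values and were tested, all but Rpl10l and Rpl3l. The median SD of these 84 was lower than that of all tested genes, which were not matched to them in level. The SD of log2 CPM over group means had a median of 0.20 in the members and 0.51 in all tested genes, and within groups the medians were 0.28 and 0.68. Within groups the 15 mostly own members had a median SD of 0.21 and the 69 mostly shared ones 0.30. The parts of level, counting error and saturation in these SDs were not tested, so a lower SD was not read as steadier expression. In sorted bulk samples, fewer cells of a type and less RNA per cell cannot be told apart.

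Whether ST2+ and ST2- CD44hi Tregs of a tissue differ in these genes was asked in each of the 6 tissues. In blood, Rps18, a small subunit head protein, was lower in ST2+ Tregs. Its levels were 50.7, 37.9, 42.2 and 34.0 CPM in the ST2+ libraries and 95.6, 77.9, 51.3, 57.4 and 59.7 CPM in the ST2- libraries. The groups did not overlap, with the highest ST2+ library just under the lowest ST2- library. The log2 fold change was -0.73 (SE 0.20) and the adjusted p was 0.0187 by edgeR. Rps18 was the only member called of 84, or 1.19%, where 4.33% of all tested genes were called and 1.81% were called lower. Rps18 and Rpl3 were the members whose blood libraries did not overlap, 2 of 84 beside 5.05% of all genes. The call was lost with voom, in the fits without each mouse and without the 2 libraries of fewest sorted cells, blood ST2+ mouse 3 and VAT ST2- mouse 2.

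In blood 74 of 84 members had a negative log2 fold change and 10 a positive one, with a median of -0.24 beside 0.00 over all genes. The 5 blood ST2- libraries included that of mouse 2, with its share of 0.840%. Rpl3, which lies near the peptidyl transferase centre, was at 43.3, 37.9, 41.2 and 39.7 CPM in ST2+ and at 66.6, 53.5, 55.8, 58.9 and 61.5 CPM in ST2- libraries. These ranges did not overlap either, but the adjusted p by edgeR was 0.0882 (log2 fold change -0.55, SE 0.19). With mouse as a replicate block Rps18 and Rps19 were called, and with DESeq2 Rps18, Rps19 and Rpl3.

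No member was called by edgeR between ST2+ and ST2- Tregs in spleen, lungs, VAT, colon or skin, and voom and DESeq2 made no call there either. The share of all tested genes that edgeR called was 0.349% (spleen), 0.888% (lungs), 3.48% (VAT), 0.0683% (colon) and 0.228% (skin). At an unadjusted p under 0.05 edgeR had 2 members in lungs, 1 in VAT and 0 in the 3 other tissues. Median log2 fold changes of the members were 0.02, -0.07, 0.06, 0.03 and 0.01 in that order. The precision was such that Rps3 had a log2 fold change of 0.05 (SE 0.13) in spleen and -0.05 (SE 0.13) in skin. DESeq2 gave no adjusted p for 50 members in colon.

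CD44hi effector Tregs were set against CD44lo CD62L+ Tregs, both ST2-, in spleen and lungs. In lungs 5 members were lower in CD44hi Tregs and 0 higher, 5.95% of those tested, where 6.05% of all genes were called and 0.812% were called lower. Libraries of 7 members did not overlap, 8.33% of those tested, beside 6.96% of all genes. The 5 called members were Rpl10a, the protein of the L1 stalk, Rpl12, at the base of the P stalk, Rpl10, which is added late to the large subunit, Rps27a, made as a fusion with ubiquitin, and Rpl3. All 5 had at most 4.94% own windows, and 3 of them had none. Rpl10a stood at 23.3, 19.7, 21.0, 20.3 and 23.0 CPM in CD44hi libraries and at 48.6, 59.8, 62.5, 64.9 and 48.6 CPM in CD44lo libraries. Every CD44lo library lay far above every CD44hi library. Its log2 fold change was -1.40 (SE 0.38) with an adjusted p of 0.0115 by edgeR. The same gene was at 28.3 ± 5.8 and 50.4 ± 10.2 CPM (SD, n = 5 each) in CD44hi and CD44lo Tregs of spleen, without overlap and with an adjusted p of 0.225 by edgeR. In the lungs the lung epithelium genes were at 27.3 to 89.4 CPM in CD44hi and 41.5 to 160.7 CPM in CD44lo libraries, and their part was not tested.

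Rpl12 was at 12.7, 19.7, 20.6, 12.1 and 12.4 CPM in CD44hi and at 42.2, 36.7, 27.4, 59.8 and 33.9 CPM in CD44lo lung Tregs (log2 fold change -1.37, SE 0.38). Rpl10 (-1.33, SE 0.39) and Rps27a (-1.33, SE 0.42) had lung libraries that did not overlap either. Rpl3 fell least, by 0.55 on the log2 scale (SE 0.18), and its ranges of 62.9 to 97.3 and 94.7 to 133.8 CPM overlapped. The 15 mostly own members had a median of -0.14 and the 69 mostly shared ones -0.35, a difference that was not tested. Rps3 was at -0.09 (SE 0.13, adjusted p 0.804 by edgeR). The direction was common to 80 of the 84 members in lungs (median -0.31 beside 0.00 over all genes).

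The lung count changed with single mice. Without mouse 4 or without mouse 5 the count was 0, without mouse 1 it was 1, and without mice 3 and 2 it was 2 and 3. When the lung CD44lo library of mouse 4 and the blood ST2- library of mouse 2 were left out, Rpl10a and Rpl10 remained and the median was -0.21.

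In spleen edgeR called 0 members between CD44hi and CD44lo Tregs, where 5.40% of all genes were called, and 3 had an unadjusted p under 0.05. DESeq2 called 0 and voom 5, all lower in CD44hi Tregs, among them Rpl10a, Rpl24, Rps19 and Rpl10. Negative log2 fold changes were found in 72 members, with a median of -0.16. In 7 members the spleen libraries did not overlap, 8.33% of those tested, against 9.44% of all genes.

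Tissues were compared with spleen over the ST2+ and ST2- CD44hi groups together. A mouse can thus give both an ST2+ and an ST2- library to each side, and n counts libraries, not mice. The main fit had no mouse term. All 5 comparisons share the 10 spleen libraries, so they are given side by side. With TMM scaling the members' median log2 fold change was 0.25 (blood), 0.15 (lungs), 0.23 (VAT), 0.18 (colon) and 0.25 (skin), while the medians of all genes lay between -0.04 and 0.04. The size of these medians depends on the scaling. TMM factors were 1.04 to 1.09 in spleen CD44hi libraries and 0.887 to 0.968 in skin, and by library totals alone the members' medians were 0.20, 0.03, 0.13, 0.06 and 0.03. On that scale the median of all genes was -0.09, -0.13, -0.09, -0.07 and -0.22 in the same order. On both scales the members' median lay above that of all genes in each tissue. Library totals also differed by tissue. Their medians were 2451402 and 2276631 counts in spleen ST2+ and ST2- CD44hi Tregs, and 1701012 to 2276485 in the other CD44hi groups. The part of library total in these shifts was not tested.

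**Figure D3:**
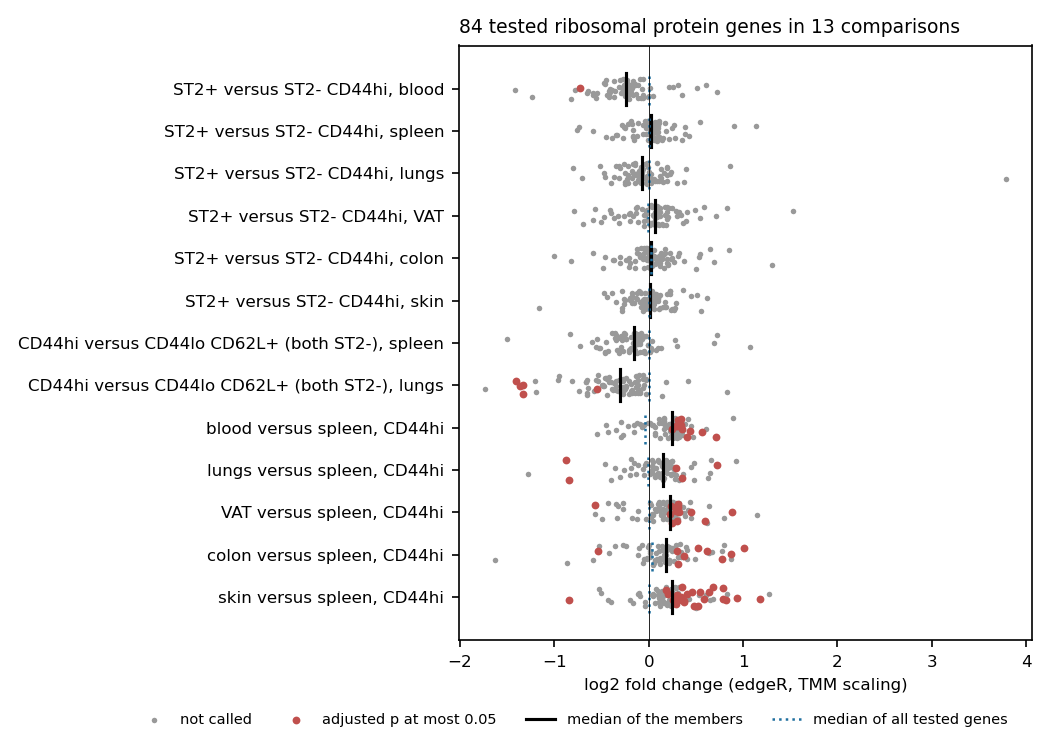
Log2 fold change (TMM scaling) of the 84 tested members in the 13 comparisons, each point a gene, with calls at an adjusted p of at most 0.05 in red. Black bars mark the median of the members and dotted bars the median of all tested genes, and the black bar lies at -0.24 for ST2 in blood, at -0.31 for CD44 in lungs and between 0.15 and 0.25 for each tissue against spleen.

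In blood 12 members were higher than in spleen and 0 lower, 14.3% of those tested beside 11.5% of all genes, with 6.19% higher and 5.3% lower. Rpl8 ranged from 318.5 to 503.7 CPM in blood (median 361.6, n = 9) and from 277.4 to 352.6 in spleen (median 307.3, n = 10). Its groups overlapped, and its log2 fold change of 0.31 (SE 0.09) had an adjusted p of 0.00915 by edgeR. Rps3, Rps13, Rps14, Rplp0, Rpl4, Rps20, Rps3a1, Rps21, Rplp1 and Rpl13a were also higher, with log2 fold changes of 0.24 to 0.71. By library totals 5 of the 12 were called, among them Rpl8, Rps13, Rps3 and Rps14. Without mouse 2 or without mouse 5 the count fell to 1, without mouse 3 it was 3, without mouse 4 it was 18, and with sorted cell number as a covariate or without the 2 libraries of highest share it was 4. In ST2+ Tregs alone, blood had 0 members higher and 1 lower than spleen (median 0.12), and in ST2- Tregs alone 5 higher and 0 lower (median 0.38). The difference between the populations was tested only by the interaction of tissue and ST2, which called 0 members by edgeR.

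In lungs 3 members were higher and 2 lower than in spleen, 5.95% beside 14.6% of all genes (9.57% higher and 5.07% lower). With mouse as a replicate block the count was 10, 8 higher and 2 lower. Rpl7l1 was lower, with lung libraries at 57.6 to 108.2 CPM (median 83.9, n = 10) and spleen libraries at 114.8 to 190.8 (median 144.8, n = 10). Every lung library lay below every spleen library. Groups without overlap, in either direction, were found for 1 member and for 2.81% of all genes. The log2 fold change was -0.85 (SE 0.14) with an adjusted p of 6.11e-06 by edgeR. Rps19bp1 was at 18.2 ± 10.3 CPM in lungs and 33.7 ± 5.2 in spleen (SD, n = 10 each, log2 fold change -0.88, SE 0.28). Rps13 and Rpl3 were among those higher, by 0.73 and 0.35 on the log2 scale. By library totals Rps13 was called and Rpl3 was not. The lung epithelium genes were at 27.3 to 115.5 CPM in these lung libraries, and their part was not tested.

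In VAT 13 members were higher and 1 lower than in spleen, 16.7% beside 21.8% of all genes (13.1% higher and 8.68% lower). The lower one was Rpl7l1, at 53.2 to 134.7 CPM (median 104.1) against 114.8 to 190.8 in spleen, with overlapping groups (log2 fold change -0.57, SE 0.14). Rpl27, a large subunit protein with no own window, was at 9.06 to 31.0 CPM in VAT and 5.88 to 14.1 in spleen (0.88, SE 0.29). The other 12 had log2 fold changes of 0.22 to 0.60 and included Rplp0, which anchors the P stalk, Rplp1 and Rps27l. By library totals 2 members were called, Rpl27 and Rpl7l1. Without mouse 5 the count was 1, without mouse 2 or mouse 3 it was 3, and without the 2 libraries of fewest sorted cells it was 6. Summed levels of 3 adipocyte genes were 10.8 to 33.3 CPM in VAT ST2+ and 0.684 to 203.3 in VAT ST2- libraries. They were at most 6.02 and 14.1 CPM in spleen ST2+ and ST2- CD44hi libraries. The myeloid genes were at 58.3 to 156.7 CPM in VAT ST2+ and 11.7 to 63.8 in VAT ST2- libraries, and at most 16.5 and 19.4 in those of spleen. The part of these cells was not tested.

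In colon 8 members were higher and 1 lower than in spleen, 10.7% beside 24.7% of all genes (17.9% higher and 6.72% lower). Rpl41 was at 92.2 to 118.5 CPM in colon (median 108.4, n = 8) and 61.2 to 80.7 in spleen (median 71.3), with no overlap (log2 fold change 0.53, SE 0.12, adjusted p 0.000438 by edgeR). It was the 1 member without overlap in colon, beside 5.18% of all genes. Rpl22l1 was at 41.7 to 112.2 CPM (median 65.0) against 21.8 to 42.4 (median 33.5). Only the lowest colon library reached into the spleen range, and the log2 fold change was 1.01 (SE 0.26, adjusted p 0.00192 by edgeR). Its paralog Rpl22 was not called in colon. Rpl7l1 was lower by 0.54 on the log2 scale (SE 0.15). By library totals Rpl41, Rpl22l1 and Rpl7l1 stayed called. Colon ST2+ libraries had summed markers of 726.4 to 896.5 CPM (myeloid), 179.5 to 761.7 (gut epithelium) and 255.1 to 747.2 (fibroblast), and their part was not tested.

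In skin 24 members were higher and 1 lower than in spleen, 29.8% beside 50.1% of all genes (26.4% higher and 23.7% lower). Rpl7l1 had the smallest adjusted p, with 62.1 to 108.4 CPM in skin (median 75.8, n = 10) against 114.8 to 190.8 in spleen (median 144.8). The groups did not overlap, and the log2 fold change was -0.85 (SE 0.14, adjusted p 1.17e-06 by edgeR). Rpl37, a zinc-binding large subunit protein, was at 57.7 to 82.9 CPM in skin (median 71.5) and 34.1 to 52.9 in spleen (median 38.8), with a log2 fold change of 0.78 (SE 0.15). Rpl41 was at 84.7 to 133.2 CPM in skin and 61.2 to 80.7 in spleen (0.54, SE 0.11), and Rpl27 at 14.7 to 30.6 and 5.88 to 14.1 (1.18, SE 0.29). None of these 3 had overlapping groups, so that with Rpl7l1 4 members did not overlap, beside 14.3% of all genes. Rpl34 was at 92.6 to 122.8 CPM against 61.7 to 99.9 (0.58, SE 0.11). The remaining 20 had log2 fold changes between 0.19 and 0.94 on the TMM scale.

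By library totals the skin comparison had 8 calls, 4 higher (Rpl37, Rpl27, Rpl34 and Rpl41) and 4 lower (Rpl7l1, Rpl22, Rps19 and Rps18). Rpl22 had a log2 fold change of -0.42 on that scale (SE 0.11), and Rps19, the gene mutated in many cases of Diamond-Blackfan anemia, one of -0.34 (SE 0.10). Rpl4 and Rpl8, higher with TMM at 0.19 and 0.21, were at -0.04 and -0.02 by library totals. In skin, keratinocyte markers reached 1030 and 1094 CPM in the ST2+ and ST2- groups, and their part was not tested.

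Over all 71 calls of a member in a single comparison, 10 were made under each of the 16 settings tried. They included Rpl7l1 in lungs, VAT and skin, Rpl41 in colon and skin, Rpl37, Rpl34 and Rpl27 in skin and Rpl22l1 in colon. For Rpl7l1 the log2 fold change ranged from -1.07 to -0.74 in skin over these settings, and for Rpl37 from 0.56 to 0.83. In the main fit, with both CD44hi populations together, Rpl7l1 and Rps19bp1 were the only members called lower than in spleen. The symbols brought in both, an assembly protein and a protein that binds Rps19. No other member was called lower than in spleen in that fit. Group means of Rpl7l1 were 145 CPM in both spleen CD44hi groups and 161 in spleen CD44lo CD62L+ Tregs, 123 and 106 in blood (log2 fold change -0.34, adjusted p 0.114 by edgeR, not called), and 76.2 to 107 in every group of lungs, VAT, colon and skin.

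**Figure D4:**
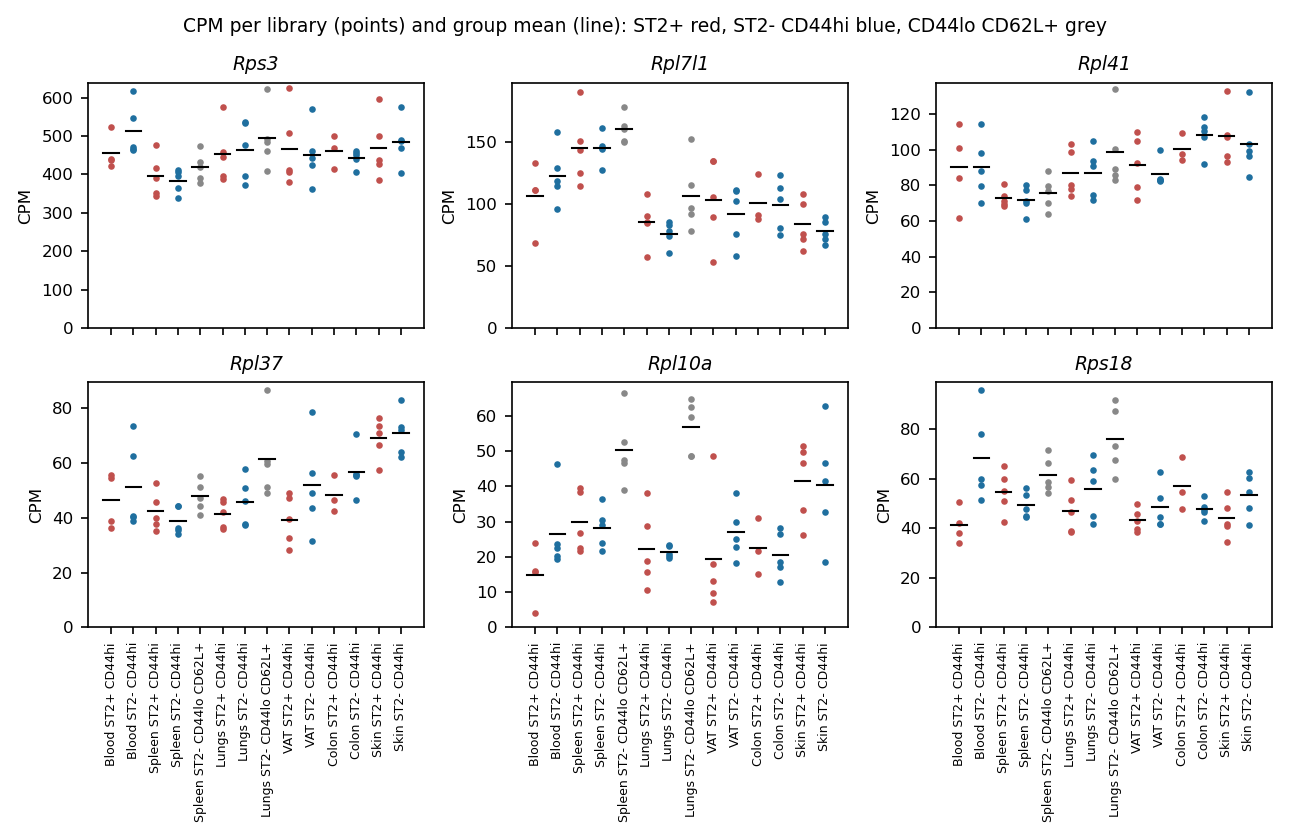
CPM (TMM-scaled) of 6 members in each library, grouped by tissue and population, with group means as lines. Rpl7l1 is lower in lungs, VAT, colon and skin than in spleen, Rpl41 and Rpl37 are higher in skin than in spleen, Rpl10a is higher in both CD44lo CD62L+ groups than in the CD44hi groups of the same tissue, Rps18 is lower in blood ST2+ than in blood ST2- Tregs, and Rps3 stays between 339.1 and 624.2 CPM.

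Variation over the 6 tissues as a whole was called by edgeR in 21 of 84 members (25%), beside 66.7% of all tested genes. The smallest adjusted p values belonged to Rpl7l1 (1.19e-06), Rpl3, Rpl37 and Rpl34. The interaction of tissue and ST2 was called in 0 members by edgeR, beside 1.43% of all genes, and 1 member had an unadjusted p under 0.05. That gene was Rps18, with an adjusted p of 0.218, and DESeq2 called it. With voom there was no call.

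Other parts of the translation machinery were read from lists of known genes. Among 44 ribosome biogenesis genes, which build the subunits in the nucleolus, 12 were lower and 1 higher in lungs than in spleen, where 5.07% of all genes were lower. In skin 22 were lower and 7 higher, where 23.7% of all genes were lower and 26.4% higher. Between ST2+ and ST2- Tregs of blood 6 were lower and 0 higher, where 1.81% of all genes were lower. Their median log2 fold change in skin was -0.35, beside 0.25 for the ribosomal proteins. Nop2, an rRNA methyltransferase, had log2 fold changes of -1.09 (blood), -0.90 (lungs), -0.88 (VAT), -0.89 (colon) and -1.13 (skin), and was at 62.4 ± 17.6 CPM in skin and 136 ± 27 in spleen (SD, n = 10 each). Dkc1, the pseudouridine synthase of the nucleolus, was at 62.5 ± 28.0 CPM in skin and 189.9 ± 21.9 in spleen. Taf1d, a factor for RNA polymerase I, was higher there by 1.15 (SE 0.14).

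Of 78 mitochondrial ribosomal proteins, 52 were lower and 5 higher in skin than in spleen, with a median of -0.59, where 23.7% of all genes were lower. Mrpl10 was at 28.7 ± 11.1 CPM in skin and 107 ± 17 in spleen. In lungs 13 of them were lower and 1 higher, where 5.07% of all genes were lower. Between ST2+ and ST2- Tregs 1 of the 78 was called in blood, Mrpl33, higher in ST2+ Tregs, where 4.33% of all genes were called. In the 5 other tissues edgeR called 0 of them, beside 0.0683% to 3.48% of all genes.

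Of 20 translation factors and other genes with a TOP tract, 8 were higher and 2 lower in skin than in spleen, a share of those called near the 50.1% of all genes. Eef2, the translocation factor, was at 908 ± 73 CPM in skin and 690 ± 52 in spleen, and Eif3a at 687 ± 70 and 439 ± 56. Tpt1, a classical TOP mRNA, was higher than in spleen in blood, lungs, VAT and colon, for example at 56.1 ± 7.6 CPM in colon (n = 8) and 36.4 ± 4.4 in spleen (n = 10). Eif1, from a list of 8 other initiation factors and a selector of start codons, had log2 fold changes of 0.52 (blood), 0.76 (lungs), 0.76 (VAT), 1.14 (colon) and 1.10 (skin), each called.

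Among 18 regulators of mTORC1, Myc and TOP mRNAs, Mxd1, an antagonist of Myc, was at 635 ± 67 CPM in skin and 78.4 ± 26.2 in spleen. Myc itself had a log2 fold change of -1.31 in skin (SE 0.20). Rheb, the activator of mTORC1, was at 305 ± 39 and 121 ± 17, and 9 of the 18 were called in skin, where 50.1% of all genes were called. Between ST2+ and ST2- Tregs, 1 regulator was called in the 6 tissues, Myc in skin, where 0.228% of all genes were called. In the other tissues that share was 0.0683% to 4.33%. Myc was at 127 ± 44 and 54.8 ± 24.2 CPM in ST2+ and ST2- skin Tregs (n = 5 each, log2 fold change 1.22, SE 0.29, adjusted p 0.0425 by edgeR). In the lungs Larp1, which binds the TOP tract, was lower in CD44hi than in CD44lo Tregs, at 149 ± 19 and 246 ± 39 CPM, and Pabpc1 and Nop56 were lower as well.

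The P stalk proteins Rplp0, Rplp1 and Rplp2 recruit translation factors to the ribosome. Rplp0 and Rplp1 were higher than in spleen in blood, VAT and skin on the TMM scale (Rplp0 by 0.29, 0.29 and 0.37 on the log2 scale). By library totals none of these 6 calls was made by edgeR, and Rplp0 was at 0.24, 0.19 and 0.14. In no ST2 or CD44 comparison was any of the 3 called by edgeR.

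**Figure D5:**
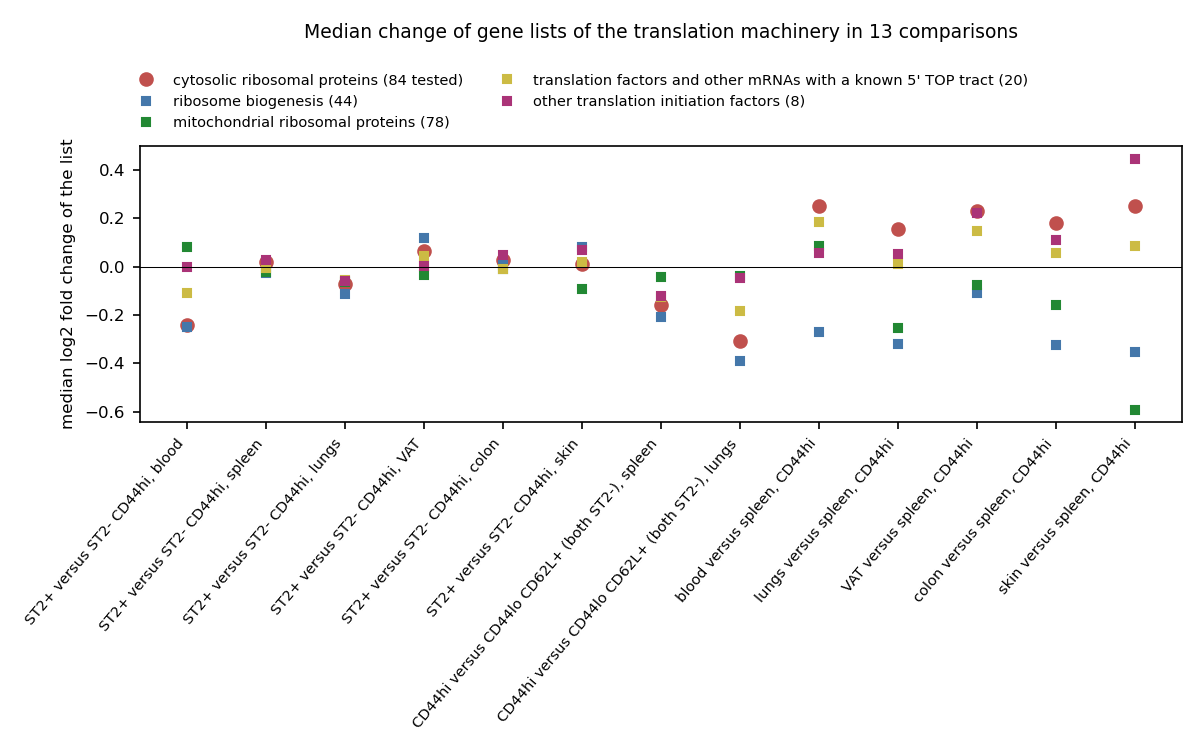
Median log2 fold change (TMM scaling) of the 84 tested members and of 4 lists of the translation machinery in the 13 comparisons. In skin against spleen the cytosolic ribosomal proteins are at 0.25, the mitochondrial ones at -0.59 and ribosome biogenesis genes at -0.35. Values are on the TMM scale, on which the median of all genes is 0.00 in skin, and by library totals the members' median there is 0.03.

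Within groups the members did not all vary together. Over 80 members with at least 5 CPM, the median Pearson r of log2 CPM deviations from the group means was 0.21 across the 67 libraries, a description of libraries that share mice and scaling. Among the 14 mostly own members the median was 0.73 over 91 pairs, between those and mostly shared members 0.30, and among the 66 mostly shared members 0.16. The closest pair was Rplp0 and Rps14, with r of 0.97, and Rpl39 and Rpl9 had the lowest value at -0.47. Mostly shared members also had lower counts, and the part of counting error in their lower r was not tested.

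Start sites were read from the RefSeq promoter table (GRCm38.p6), which matched 66 of the 86 members. The sequence was read in the direction of transcription. A C followed by at least 7 C or T, with the C within 2 bases of the annotated start, was found in 16 members (24.2%) and in 2.95% of 26959 other genes. Within 50 bases of the start it was found in 53 members (80.3%) and 31.9% of other genes. A match is a description of letters only. The 4 starts below run from 10 bases before to 20 after the annotated start, with the tract in capitals, for genes described above and for Rpl38, a large subunit protein known for its part in Hox mRNA translation.
Rps6, chr4:86857348-86857377, minus strand: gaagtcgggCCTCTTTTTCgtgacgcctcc
Rps18, chr17:33955646-33955675, minus strand: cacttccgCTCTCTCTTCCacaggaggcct
Rps27, chr3:90213629-90213658, minus strand: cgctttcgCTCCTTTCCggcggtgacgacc
Rpl38, chr11:114668570-114668599, plus strand: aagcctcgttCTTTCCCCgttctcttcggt
Rps27rt, the copy of Rps27, had no such tract within the window searched, and Rpl41, Rpl37 and Rpl34 had one within 50 bases but not at the annotated start.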

How the data were processed

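RNA-seq counts per gene were measured in 70 libraries of sorted mouse Tregs, and the 67 with more than 1000000 counts were used. The deposited values are raw counts that the authors made with STAR on GRCm38 and HTSeq (0.4.1 per the submitters' processing notes), from SMART-Seq v4 and NexteraXT libraries. Whether counting used strand or removed duplicates is not stated in the sources used. The members and gene lists were chosen with earlier results of these data known. Genes with at least 1 CPM in 10% of the libraries (13173) were tested with edgeR 4.0.16 (R 4.3.3, TMM, quasi-likelihood, robust, 14 group terms, no mouse term), with Benjamini-Hochberg adjustment over all of them. Alternatives were voomWithQualityWeights (limma 3.58.1), DESeq2 1.42.0, a mouse block, other scalings and filters, sorted cell number, and libraries left out. The steps were tested on simulated data. CPM are TMM-scaled, and SD is over libraries. SE was not estimated directly but derived from the edgeR test, as the absolute log2 fold change over the square root of the F statistic. Replicate numbers name mice, so same-numbered samples are paired by animal. Over 8650 genes, deviations of 27 same-mouse ST2+ and ST2- pairs had a mean r of 0.0844 (7 above 0.1), and those of 108 pairs of different mice one of -0.0199. No 2 of 129 library pairs within groups were identical. Named members were those of set roles, the 2 called with the smallest adjusted p per comparison and direction, and the extremes of level and spread. Other names were added after values were seen. A few genes enter the counts and medians but are not reported here by name.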

Additional observations from a re-analysis of the deposited data

Results flagged for a closer look

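The lung CD44lo CD62L+ library of mouse 4 gave 0.873% of its protein-coding counts to ribosomal protein genes, and its gap to the next library was 0.722 of the group's range, above the critical value for 5 samples. Of 13 groups tested this was 1, and chance alone marks about 1 in 20 groups. The 3 libraries left out for low totals had shares above all 67 used libraries, at 1.40% in blood ST2+ mouse 1 (488666 counts), 1.47% in colon ST2+ mouse 2 (3582 counts) and 1.69% in colon ST2+ mouse 5 (62333 counts).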

How the results depend on the processing

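Calls near the threshold moved with the settings, and the cause was not tested. For ST2 in blood the count of called members, 1 by edgeR, was 0 with voom, 3 with DESeq2, 2 with the replicate block (mouse), 0 without the 2 libraries of fewest sorted cells and 0 to 0 without single mice. The replicate block also gave 10 in lungs against spleen, and it moved no other count by more than 1.5 times. For CD44, voom gave 5 in spleen, and in lungs 12, with 8 by DESeq2, 3 without the low-count filter, 2 without the 2 libraries of highest member share and 0 to 3 without single mice. For blood against spleen the count was 6 without the filter, 4 with sorted cells as covariate, 4 without the libraries of highest share, 5 by library totals and 1 to 18 without single mice. For lungs against spleen it was 11 with voom, 3 without the filter, 8 without the libraries of highest share, 3 by library totals and 2 to 3 without single mice. For VAT it was 7 with voom, of which 3 were shared with edgeR, 5 without the filter, 5 with sorted cells, 6 without the libraries of fewest cells, 2 by library totals and 1 to 15 without single mice. For colon it was 15 with voom, 15 with DESeq2, 3 by library totals and 3 to 6 without single mice. For skin it was 39 with voom, 8 by library totals and 14 to 24 without single mice. Variation over tissues was called in 35 members with voom, 33 with DESeq2 and 12 to 22 without single mice, and the interaction in 1 with DESeq2. Of 221 alternative medians 1 moved by more than 1 SD of the libraries' median deviations, skin against spleen by library totals (0.03). On that scale the medians of lungs (0.03), VAT (0.13) and colon (0.06) also fell by more than 1.5 times. Of 1065 alternatives to 71 single calls, 734 kept the call, 329 lost it and 2 changed sign, Rpl8 (-0.017) and Rpl4 (-0.040) in skin by library totals. With all 70 libraries the mean share was 0.734% in blood ST2+ and 0.968% in colon ST2+ Tregs. The settings by library totals and without named pairs of libraries were chosen after seeing the data. About 11079 member counts per library limit the precision of members at low levels.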
